A study of Danio rerio with 13 samples.

Results

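Zebrafish larvae with both copies of aldh3b1 knocked out by CRISPR (3 libraries, called KO) were set against untreated larvae of wild-type genotype (5 libraries, called WT), over all genes of the deposited count table. These are 8 of the 13 libraries of the series. The other 5, called 2HD, came from wild-type larvae given 2-HD, a compound the labels do not spell out. All 3 groups were larvae of the Tg(fli1:EGFP) line, in which the fli1 promoter drives a green fluorescent protein in the endothelium, so KO and WT both carry that transgene. KO and WT larvae were untreated. The targeted exon, the allele, larval age, clutch and the number of larvae in a library are not given in the sources used here, so p-values describe the spread among these libraries alone, and part of it may be technical. The study around these libraries examined development, glucose metabolism, the retina and the trunk vessels of the knockout.

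Aldehyde dehydrogenases oxidise reactive aldehydes to carboxylic acids. In mammals the ALDH3B1 enzyme acts on medium- and long-chain lipid aldehydes, such as those that arise when membranes are oxidised and when sphingolipids are broken down. Whole-larva RNA sums over every tissue, so a gene's level depends on how many cells express it and on how much RNA each holds. Fewer cells of a type and less RNA per cell cannot be told apart here.

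Libraries held 19066393 to 19332225 counts in KO and 17975289 to 19009200 in WT, ranges that do not overlap but differ little in size. The 10 most abundant genes took 10.1% to 10.73% of the counts in KO and 10.88% to 11.69% in WT. A count of 0 allows up to 3 counts, which is 0.154 to 0.157 CPM (counts scaled by library size) in KO and 0.161 to 0.173 CPM in WT, for counting error only. On the first principal component of all 13 libraries (37.7% of the variance), KO lay at -9.31 to 9.86, with 1 library inside the 2HD range of 8.03 to 49.6 and all above WT at -52.0 to -16.2, and the WT library nearest to KO was replicate 3. The lower end of the 2HD range was that of 2HD replicate 1 alone, and the other 2HD libraries lay at 38.8 to 49.6. WT replicate 14 and 2HD replicate 1 stood apart on the second component (15.5% of the variance). Libraries of 1 group were never alike to within counting noise, since the chi-square of each pair was 4.73 to 24.8 times its degrees of freedom.

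The targeted gene itself did not separate KO from WT. Expression of aldh3b1 was 5.59, 5.49 and 4.49 CPM in KO replicates 2, 3 and 7, against 4.62, 5.22, 6.03, 7.19 and 7.45 CPM in WT replicates 3, 5, 10, 13 and 14. The ranges overlapped, with 2 KO libraries inside the WT range and 1 just below it. The means were 5.19 ± 0.608 CPM (SD, n = 3) in KO and 6.10 ± 1.22 CPM (SD, n = 5) in WT, a log2 change of -0.23 (SE 0.19, 95% interval -0.63 to 0.17; edgeR, adjusted p = 0.474). These values rest on 86 to 109 counts per KO library and 86 to 129 per WT library. In the 2HD libraries aldh3b1 stood at 8.13 to 13.2 CPM, above every KO and every WT library. It was called lower in KO against 2HD (log2 fold change -0.97, SE 0.19; edgeR, adjusted p = 0.0152). The level of the transcript says nothing of whether the protein was lost, and it is no check of the labels.

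Genes called higher in the knockout included genes of the extracellular matrix, the larval fin fold, the skeleton and the epidermis, such as mmp2, and2, sp7 and grhl3, and genes called lower included gngt2b of cones, cabp2a of the retina and nrxn1a of synapses. None of these named genes was called in KO against 2HD (edgeR, adjusted p = 0.0631 to 0.725). In 2HD, of wild-type genotype, mmp2 stood at 102 to 128 CPM and and2 at 164 to 371 CPM. There gngt2b stood at 367 to 495 CPM and nrxn1a at 111 to 128 CPM. Of 22158 genes tested, 1322 (5.97%) were called at an edgeR adjusted p under 0.05, 909 higher in KO (4.1%) and 413 lower (1.86%). The median log2 fold change was 0.68 among the higher calls, 208 of which were more than 2-fold higher, and -0.43 among the lower calls, 19 of which were more than 2-fold lower. The median over all genes tested was 0.0014, so the scale of all genes was centred near 0. All KO libraries lay above all WT libraries for 7.45% of the genes tested and below them for 8.01%, whether or not they were called.

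**Figure D1:**
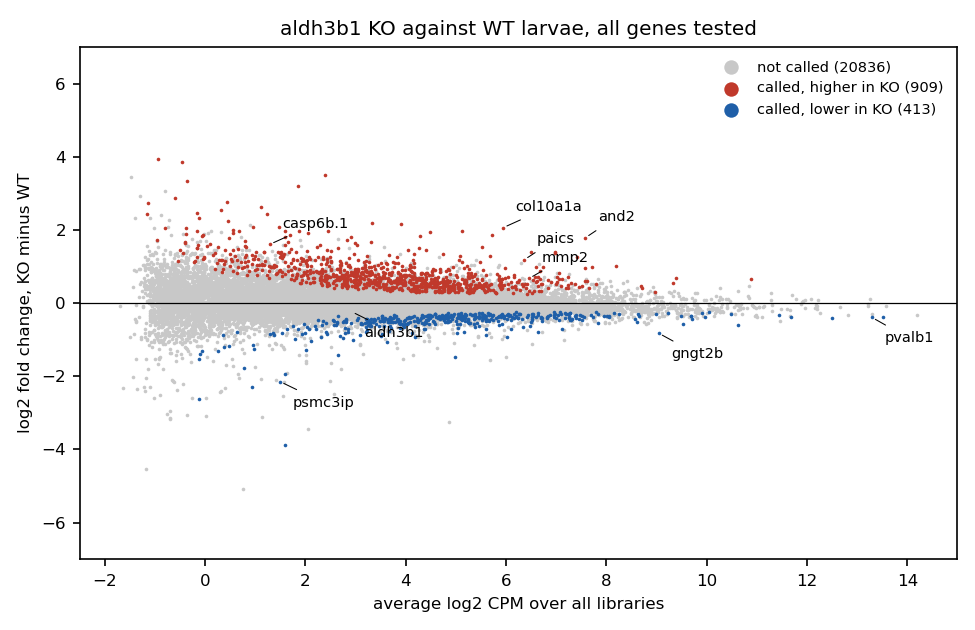
Log2 fold change of KO over WT (vertical axis) against the average log2 CPM over all 13 libraries (horizontal axis) for the genes tested, with genes called higher in KO in red (909), genes called lower in blue (413) and the others in grey. More called rises (208) than called falls (19) lie beyond a 2-fold change. 1 gene lies outside the plotted range of 7 in either direction.

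The 3 KO libraries did not contribute alike. In the higher calls, the median log2 difference from the WT mean was 0.44 in KO replicate 2, 0.73 in replicate 3 and 0.84 in replicate 7. Replicate 2 was the lowest KO library in 726 of the 909 higher calls and lay inside the WT range in 199, against 8 for replicate 3 and 0 for replicate 7. The lower calls were more even, at -0.38, -0.41 and -0.50 in replicates 2, 3 and 7.

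The number of calls rested on single libraries. It was 1650 without KO replicate 2, but 3 without KO replicate 3 and 4 without KO replicate 7, and 2071, 306 and 398 without WT replicates 3, 10 and 13. With only KO and WT in the fit, 102 genes were called, 101 of them among the 1322. DESeq2 called 2364 genes, among them 1316 of the 1322, with 56.9% of its calls higher in KO against 68.8% in edgeR. The counts in the paragraphs that follow are to be read with these numbers beside them.

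**Figure D2:**
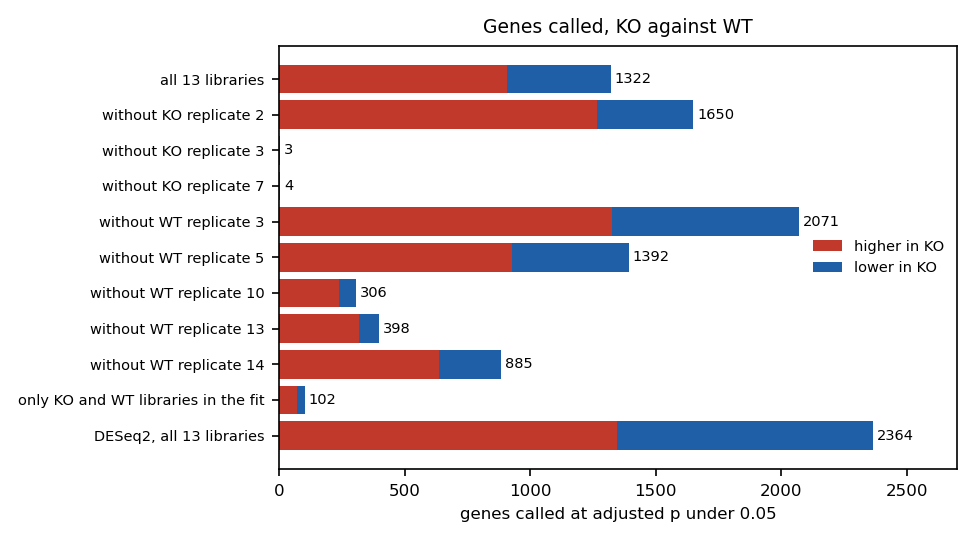
Genes called in KO against WT (horizontal axis, number of genes at an adjusted p under 0.05), higher in KO in red and lower in blue, for the fit of all 13 libraries, for fits with 1 KO or WT library left out, for the fit of KO and WT alone, and for DESeq2. The bar is longest for DESeq2 (2364) and nearly vanishes without KO replicate 3 (3) or KO replicate 7 (4).

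Just 2 genes were called in the full fit and also without each KO library in turn, psmc3ip and casp6b.1. The first, psmc3ip, encodes a cofactor of strand exchange in meiotic recombination in mammals and yeast. It stood at 0.974, 1.02 and 0.626 CPM in KO replicates 2, 3 and 7, against 4.41, 3.59, 3.91, 3.90 and 3.70 CPM in WT replicates 3, 5, 10, 13 and 14. Every KO library lay far below every WT library, with 12 to 20 counts in KO and 64 to 82 in WT. The log2 fold change was -2.15 (SE 0.25; edgeR, adjusted p = 0.00632), with adjusted p-values of 4.54e-10 to 0.0485 over the alternatives tried.

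The other, casp6b.1, encodes an effector caspase of the caspase-6 family, proteases that cut cell proteins in apoptosis. It stood at 3.28, 4.41 and 5.22 CPM in KO replicates 2, 3 and 7, against 1.45, 1.09, 1.73, 1.39 and 1.39 CPM in the WT libraries in the same order as above. The groups were again well apart, with a log2 change of 1.6 (SE 0.19; edgeR, adjusted p = 0.00632, and 8.59e-08 to 0.0486 over the alternatives tried). Its paralogue casp6a was also higher, at 5.58 ± 0.179 CPM in KO (SD, n = 3) and 2.31 ± 0.873 CPM in WT (SD, n = 5), a log2 change of 1.27 (SE 0.22, adjusted p = 0.0119). How reads shared by such paralogues were counted is not given in the sources used here, so their separate levels are uncertain. The call of casp6a was lost without KO replicate 3 and without KO replicate 7.

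Beyond these, the rises with the smallest adjusted p-values included genes of folate and purine metabolism, of signalling and of the epidermis. Among called genes with no overlap of the groups, an average log2 CPM of 1 or more and a proper gene symbol, the 12 smallest adjusted p-values lay between 0.00632 and 0.0101. The largest of these fold changes after casp6b.1 was that of mthfd1l, a mitochondrial enzyme of the folate cycle that supplies formate, at 28.2, 23.3 and 41.3 CPM in KO, against 12.4, 14.3, 8.15, 9.92 and 10.1 CPM in WT (log2 fold change 1.49, SE 0.21). The bifunctional enzyme gene paics, of purine synthesis, stood at 105, 124 and 204 CPM in KO replicates 2, 3 and 7, against 50.2 to 79.5 CPM in the 5 WT libraries (1.18, SE 0.18). For both genes every KO library lay above every WT library, and replicate 7 was the highest.

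Signalling genes in this set included sfrp2, a secreted modulator of Wnt signalling, which stood at 7.22, 11.1 and 12.4 CPM in KO, against 3.85 to 5.59 CPM in WT (log2 fold change 1.15). The growth factor gene pdgfc averaged 7.46 ± 0.852 CPM in KO and 4.41 ± 0.341 CPM in WT (0.76), and gna15.1, a G protein alpha subunit gene, 13.6 ± 2.69 CPM in KO and 6.39 ± 1.02 CPM in WT (1.09; SD, n = 3 and 5). The remaining rises were those of the small GTPase gene rhogb (log2 fold change 0.76), fam110a (1.28), gbgt1l4, of the glycosyltransferases that build globosides (1.04), SMIM22 (0.77), tm9sf5 (0.78) and the epidermal transcription factor gene grhl3, described with the epidermis. Of these 12, casp6b.1 and mthfd1l kept their calls without KO replicate 3, and casp6b.1 and SMIM22 without KO replicate 7. The others missed the threshold in those fits, at adjusted p-values of 0.051 and above.

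The 12 falls chosen in the same way were mostly of smaller size, with adjusted p-values between 0.00632 and 0.0136. After psmc3ip, the smallest adjusted p was that of rtn1b, a reticulon gene of the neuronal endoplasmic reticulum, at 83.3, 80.1 and 78.5 CPM in KO, against 112, 118, 116, 104 and 106 CPM in WT (log2 fold change -0.46, SE 0.070). Spread was low in both groups, and the lowest WT library was still above the highest KO library. The kinase gene pak7 (-0.43), the actin regulator gene phactr1 (-0.56), the orphan receptor gene gpr63 (-0.56) and the phosphatase subunit gene ppp2r5b (-0.50) fell by similar amounts.

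Photoreceptor and retinal genes in this set were rpgrip1, a scaffold of the photoreceptor connecting cilium, which averaged 13.4 ± 0.466 CPM in KO and 20.9 ± 2.11 CPM in WT (log2 fold change -0.64), and the calcium sensor gene cabp2a (-0.90). The widest fold change after psmc3ip and cabp2a was that of nmrk2, a kinase that makes NAD precursors from nicotinamide riboside in muscle, at 84.0 ± 12.9 CPM in KO and 145 ± 25.2 CPM in WT (-0.78; SD, n = 3 and 5). The others were elmo2, which helps activate Rac (-0.66), txndc15 (-0.61) and the splicing regulator gene sfswap (-0.43). Of these 12, only psmc3ip kept its call without KO replicate 3 or without KO replicate 7.

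**Figure D3:**
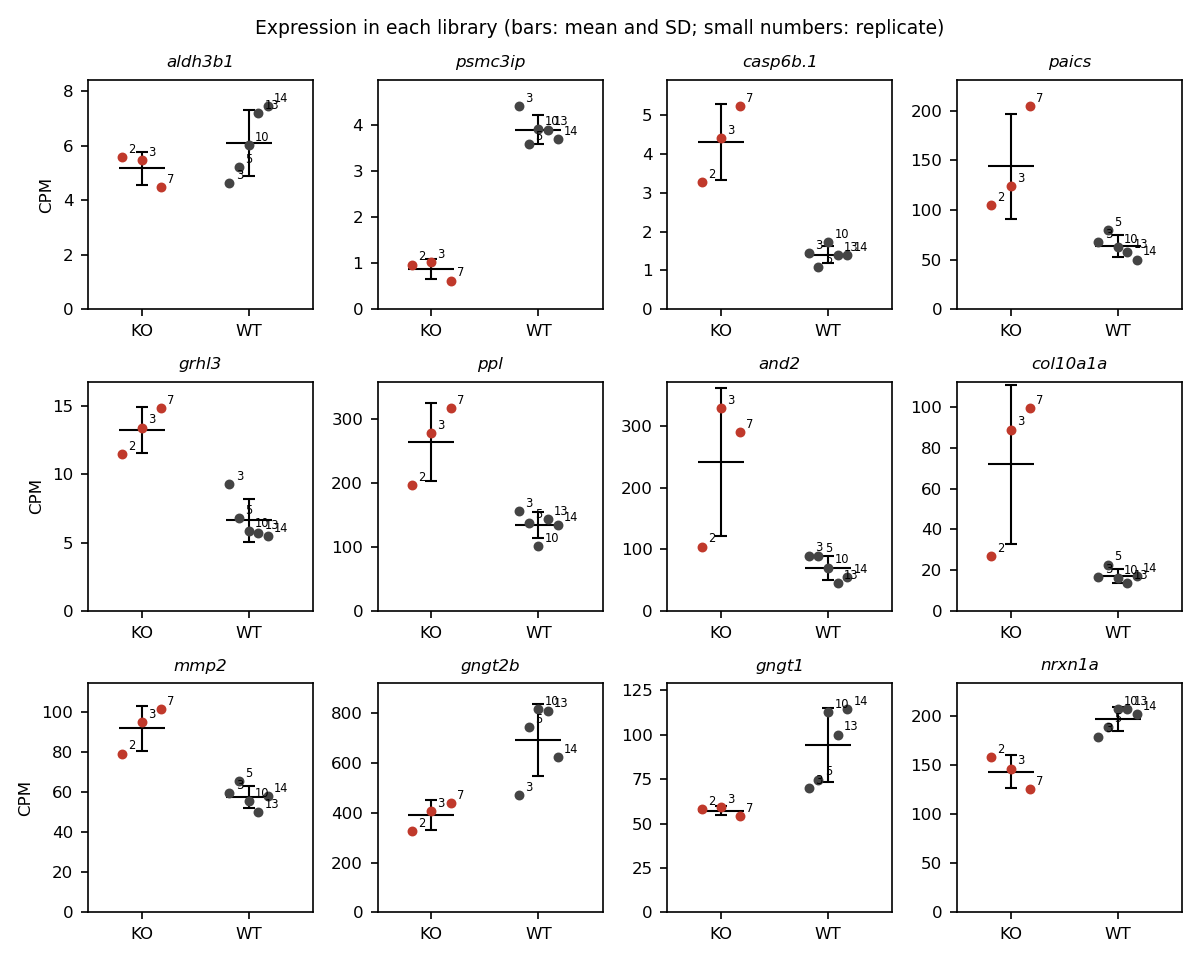
Expression in CPM (vertical axes, from 0) of 12 genes in each KO library (red) and each WT library (dark grey), with the replicate number beside each point and bars for the mean and SD. For psmc3ip and casp6b.1 the groups lie far apart, for aldh3b1 they overlap, and for and2 and col10a1a KO replicate 2 lies close to WT while KO replicates 3 and 7 lie well above it.

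A further set of genes set the KO libraries apart from both groups of wild-type genotype. The KO libraries were also compared with the 2HD libraries, which gave 1547 called genes (6.98%). That comparison shares the KO libraries with the first. Over all genes tested, 316 (1.43%) had all 3 KO libraries above or all below all 10 other libraries. Called with the same sign in both comparisons, apart from all 10 others, with an average log2 CPM of 1 or more and a proper symbol were 30 genes, of which 10 are named here.

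The 10 included psmc3ip, casp6b.1, paics and txndc15, described above. In the 5 2HD libraries psmc3ip stood at 1.58 to 3.25 CPM, casp6b.1 at 1.77 to 2.38 CPM and paics at 56.2 to 66.4 CPM, and every KO value lay outside these ranges. The amino acid synthesis gene pycr1a, whose enzyme makes proline in mitochondria, was higher, at 10.0, 13.4 and 10.8 CPM in KO, against 2.94 to 7.18 CPM in 2HD and 3.12 to 5.72 CPM in WT. Its log2 fold change was 1.51 over WT (SE 0.23; edgeR, adjusted p = 0.0101) and 1.15 over 2HD (adjusted p = 0.0159).

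Among the falls, the second entry named hbae1.3, an alpha globin gene, stood at 9.84, 8.05 and 13.5 CPM in KO, against 29.5 to 68.0 CPM in 2HD and 16.8 to 37.8 CPM in WT. Globin genes have near-identical copies, so its level is uncertain. The photoreceptor gene fscn2a, which encodes an actin-bundling protein, stood at 3.43, 2.97 and 3.65 CPM in KO, against 7.14 to 9.22 CPM in 2HD and 4.91 to 8.54 CPM in WT. Also lower were slc22a21, of the organic cation and carnitine transporter family (log2 fold change over WT -1.0), ppp1caa, a catalytic subunit of protein phosphatase 1 (-0.44), and hif1aa (-0.51). Of the 30 genes, 11 kept both calls without KO replicate 2, 1 without KO replicate 3 (psmc3ip) and 2 without KO replicate 7 (psmc3ip and casp6b.1).

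Several of these genes lie on the chromosome of aldh3b1. By their order in assembly GRCz12tu, which is not the build of the counts, 28 of the 30 could be placed and 11 of them (39.3%) lay on that chromosome, against 5.12% of all placed genes tested. They were rnf113a, psmc3ip, ppp1caa, cox6a2, cd2bp2, casp6b.1, pgls, the second entry of hbae1.3, pycr1a, plppr2a and fscn2a. Counting only tested genes along the chromosome, casp6a and casp6b.1 were the 18th and 19th from aldh3b1, ppl the 51st and psmc3ip the 66th. Of genes named further on, aldoaa was the 90th, myl4 the 269th, pvalb1 the 365th and evplb the 499th.

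In the comparison with WT, 89 of 946 tested genes on that chromosome were called (9.41%), 52 higher and 37 lower, against 1050 of 17516 on other chromosomes (5.99%). Among the 50 nearest tested genes on each side of aldh3b1, 13 of 100 were called, 9 higher and 4 lower. The part that position plays in these values was not tested.

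Gene lists for the tissues and pathways of a larva were read next, 43 in all. Among their tested members, calls were higher only in 23 lists, lower only in 10, in both directions in 4 and absent in 6. Against 5.97% of all genes tested, the share of members called reached 57.1% for the fin fold, 41.7% for basement membrane and 36.6% for epidermal junctions. It was 9.8% for neurons, 10.7% for hepatocytes, 12% for the intestine, 13.9% for photoreceptor fate and structure and 15.6% for cones. For muscle it was 14% in fast, 14.3% in slow and 14.8% in cardiac muscle. It was near or below that background for ribosomal proteins (6.17%), the respiratory chain (6.33%), sphingolipid metabolism (6.82%) and rod phototransduction (6.9%). The same held for the visual cycle (7.41%), macrophages and neutrophils (7.5%), the inner retina (7.89%), Nrf2 targets (7.94%), aldehyde dehydrogenases (5%), vessels (3.77%) and glycolysis (2.38%). Also below it were cholesterol and fatty acid synthesis (4.65%), glia of the nervous system (4.55%), erythroid genes (3.7%), fatty acid oxidation (1.92%) and heat shock (1.85%). The number of calls in either direction thus does not set these lists apart. By direction, 4.1% of all genes were called higher and 1.86% lower. Ribosomal, respiratory, rod and inner retina calls were all lower, at shares above 1.86%. Sphingolipid, macrophage and Nrf2 calls were all higher, at shares above 4.1%. The median log2 fold change was positive in 27 lists and negative in 16. In 22 of the 27 lists with a positive median, KO replicate 2 had the lowest mean level of the 3 KO libraries. Without KO replicate 3, and likewise without KO replicate 7, 42 of the 43 lists held no call, and the exception was the list with casp6b.1. Of the 86 counts of higher and lower members, leaving out KO replicate 2 or WT replicates 3, 5, 10, 13 or 14 moved 20, 27, 17, 36, 31 and 19 by over 1.5 times, in this order.

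**Figure D4:**
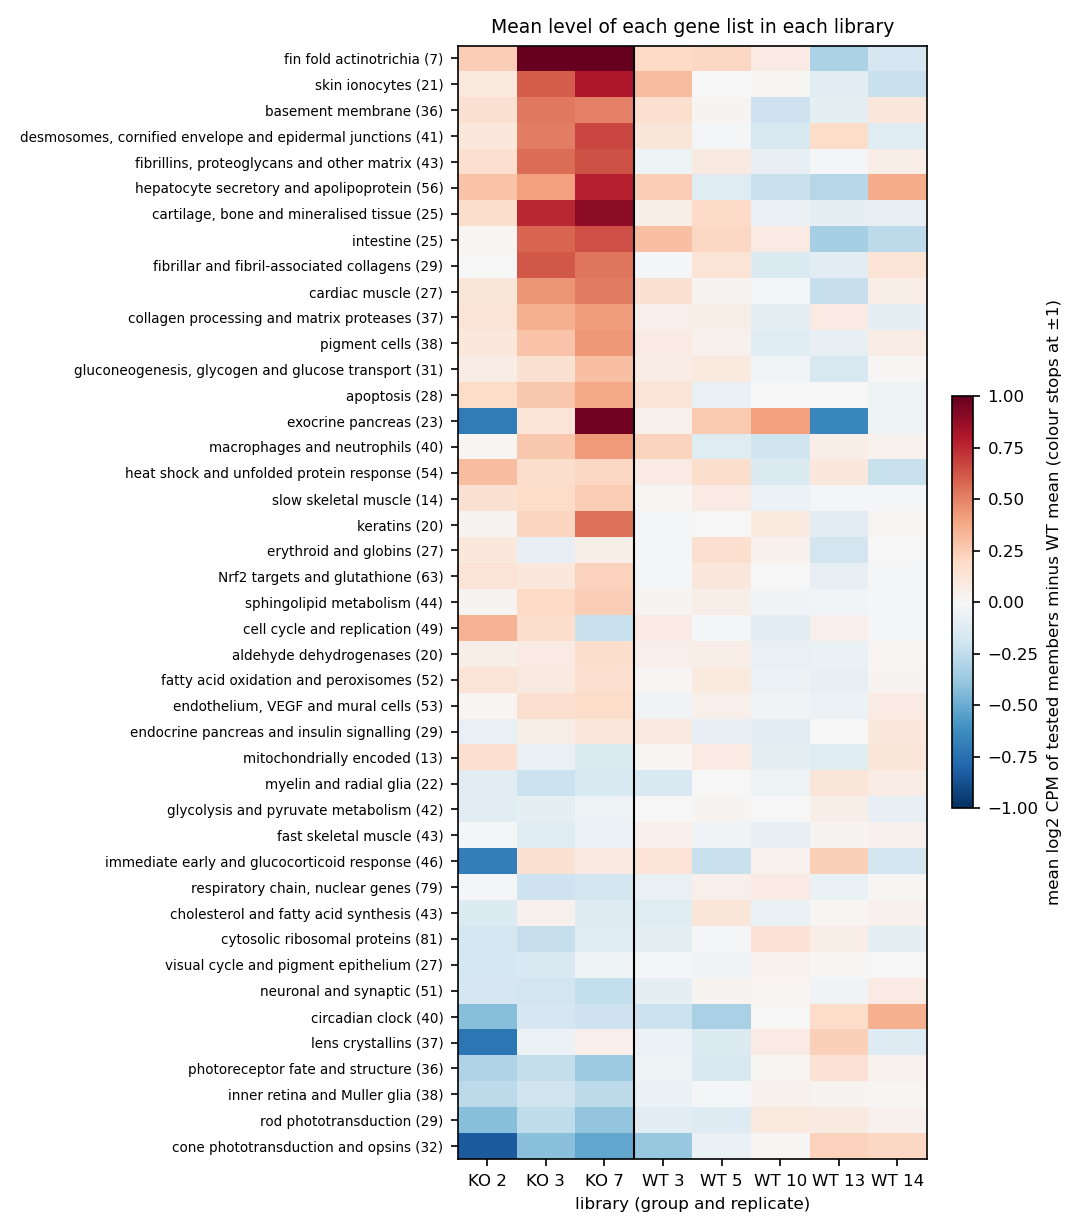
Mean level of the tested members of 43 gene lists (number of members in brackets) in each KO library (left of the line) and each WT library (right of it), as log2 CPM minus the mean of the 5 WT libraries (colour, red above and blue below, with the same shade beyond 1 in either direction). Lists are ordered by their median fold change. Fin fold genes at the top lie at 1.43 and 1.34 in KO replicates 3 and 7 and at 0.249 in KO replicate 2, while cone genes at the bottom lie at -0.419 to -0.832 in KO and reach -0.377 in WT replicate 3.

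The largest median of any list was that of the actinotrichia, the collagen-like fibrils that stiffen the larval fin fold. Of 7 members tested, 4 rose and 0 fell, with a median log2 fold change of 1.23. The fibril gene and2 stood at 105, 330 and 291 CPM in KO replicates 2, 3 and 7, against 89.9, 89.7, 70.4, 45.9 and 55.6 CPM in WT replicates 3, 5, 10, 13 and 14 (a log2 change of 1.78, SE 0.33; edgeR, adjusted p = 0.0137). Replicates 3 and 7 lay about together and far above WT, and replicate 2 just above the highest WT library. For and1 (log2 fold change 1.39) and and3 (1.96) the picture was similar, with and3 at 14.4 CPM in KO replicate 2, inside the WT range of 6.91 to 17.5 CPM, and at 65.7 and 58.5 CPM in the other KO libraries. The 4th member called, fbln1, encodes a fibulin and is also on the list of other matrix proteins (1.23). Without WT replicate 10, and likewise without WT replicate 13, 2 members were called.

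Basement membrane genes were called in 15 of 36 cases, all higher, with a median of 0.45. These proteins form the sheets under epithelia and around vessels and muscle. They included chains of laminin, namely lama5 (log2 fold change 0.56), lamb1a (0.42), lamb4 (0.71), lamc1 (0.46) and lamc3 (0.51), and of collagen IV, namely col4a1 (0.71), col4a5 (0.51) and col4a6 (0.43). The nidogens nid1b (0.42) and nid2a (0.59), which link the laminin and collagen networks, rose as well. Genes of the Fraser complex, a part of the basement membrane under the epidermis, were also higher. Here frem1a stood at 6.61, 17.7 and 17.9 CPM in KO replicates 2, 3 and 7, against 4.62 to 7.15 CPM in WT (1.33, SE 0.28, edgeR, adjusted p = 0.0205). The mean of frem2b was 34.1 ± 5.75 CPM in KO and 22.5 ± 2.85 CPM in WT (log2 fold change 0.60, with SD for n = 3 and 5). KO replicate 2 lay inside the WT range for frem1a but not for frem2b. With WT replicate 10 left out 1 member was called, with WT replicate 13 left out 2, and 0 in the fit of KO and WT alone.

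Calls among interstitial matrix genes were also all higher. Among fibrillar and associated collagens, 7 of 29 rose and 0 fell (median 0.35), among them 4 entries of collagen VI: col6a1 (log2 fold change 0.67), col6a2 (0.51), the second entry named col6a3 (0.46) and col6a4a (0.89). Collagen X, a marker of hypertrophic cartilage and of bone-forming cells, had the largest of these changes, with col10a1a at 27.11, 88.99 and 99.63 CPM in KO replicates 2, 3 and 7, against 16.8, 22.7, 16.0, 13.6 and 17.0 CPM in WT (2.06, SE 0.34, adjusted p = 0.0108). All KO libraries lay above WT, replicate 2 by the least. Other matrix proteins rose in 13 of 43 cases (median 0.40), among them the proteoglycans vcanb (1.34) and fmodb (1.74), the periostins postna (1.29) and postnb (0.40), fibronectins fn1a (0.55) and fn1b (0.59) and elnb, an elastin (1.29).

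Matrix-remodelling genes rose in 7 of 37 cases and fell in 0 (median 0.31), and 6 of the 7 encode matrix metalloproteinases. The gelatinase gene mmp2 stood at 79.1, 94.7 and 101 CPM in KO replicates 2, 3 and 7, against 59.3, 65.2, 55.4, 49.8 and 57.8 CPM in WT (log2 fold change 0.67, SE 0.10; edgeR, adjusted p = 0.0101). The 3 KO values lay close to each other and above all WT values. The membrane-bound genes mmp14a (0.40) and mmp14b (0.50), whose products activate the mmp2 proenzyme in mammals, and mmp11a (1.17) were also higher. Leaving out WT replicate 10 left 1 collagen, 1 other matrix and 3 remodelling genes called, and leaving out WT replicate 13 left 1, 2 and 3.

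Skeletal and tooth genes rose in 8 of 25 cases and fell in 0 (median 0.38). They included sp7, the osterix transcription factor of bone-forming cells, at 1.84, 3.13 and 2.71 CPM in KO replicates 2, 3 and 7, against 0.751 to 1.52 CPM in WT (log2 fold change 1.28, SE 0.25; edgeR, adjusted p = 0.0155). The groups did not overlap. Secretory proteins of mineralised tissue changed by more at low levels, with scpp5 at 8.14 ± 4.29 CPM in KO and 2.34 ± 0.568 CPM in WT (1.79), scpp9 at 3.68 ± 2.94 CPM in KO and 0.582 ± 0.351 CPM in WT (2.64), enam at 1.65 and odam at 2.07 on the log2 scale. For scpp9, KO replicate 2 lay at 0.922 CPM, inside the WT range, and replicate 7 at 6.78 CPM. The cartilage regulator sox9a changed least of those called (0.32), and 2 members were called without WT replicate 10 and 2 without WT replicate 13.

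In the epidermis, junction and cornified envelope genes rose in 15 of 41 cases and fell in 0 (median 0.44). The transcription factor gene grhl3, which directs epidermal barrier formation in mice, stood at 11.5, 13.4 and 14.9 CPM in KO replicates 2, 3 and 7, against 9.30, 6.80, 5.86, 5.69 and 5.49 CPM in WT (log2 fold change 1.00, SE 0.15; edgeR, adjusted p = 0.0101). WT replicate 3 was the nearest to KO, and the groups did not overlap. Its relative grhl1 (1.18) and the desmosomal genes dspa (0.60), dspb (0.71), pkp1a (0.81), pkp1b (0.98) and jupa (0.42) rose too. Plakins of the cornified envelope, which tie keratin to the cell border, were also higher, with ppl at 197, 278 and 317 CPM in KO replicates 2, 3 and 7, against 101 to 156 CPM in WT (0.97), and evplb at 172, 248 and 276 CPM in KO, against 89.8 to 138 CPM in WT (0.95).

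Claudins of tight junctions, cldne (log2 fold change 0.50), cldnf (0.98), cldni (0.58) and cldn7b (0.47), completed the group with pleca and evpla. Keratins themselves were called in 3 of 20 cases, krt93 (1.01), krt99 (1.26) and krt1-19d (0.83), with a list median of 0.14. Of the junction genes, 6 were called without WT replicate 10 and 3 with KO and WT alone in the fit, and of the keratins 1 was called without WT replicate 10 and 0 without WT replicate 13.

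Skin ionocytes are the mitochondria-rich cells that move salts and acid across the larval skin. Of their 21 marker genes tested, 5 rose and 0 fell, with a median of 0.68. Fold changes were positive for 17 and negative for 4. All KO libraries lay above all WT libraries for 1 of the 21 and below them for 2, which were not called. Over all genes tested these shares were 7.45% and 8.01%. The specifying transcription factor gene foxi3b stood at 8.71, 10.7 and 15.2 CPM in KO replicates 2, 3 and 7, against 5.31 to 8.98 CPM in WT (log2 fold change 0.82), the carbonic anhydrase gene ca15a at 9.22, 16.2 and 20.3 CPM in KO, against 4.74 to 10.4 CPM in WT (1.12), and the sodium pump gene atp1a1a.3 at 22.3, 43.7 and 47.9 CPM in KO, against 15.9 to 22.5 CPM in WT (0.99). In each of these 3, KO replicate 2 lay inside the WT range. The sodium-proton exchanger gene slc9a3.2 (1.09) and atp1a1a.1 (0.31) were the others called. Without WT replicate 10 there were 0 called members and without WT replicate 13 there was 1.

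**Figure D5:**
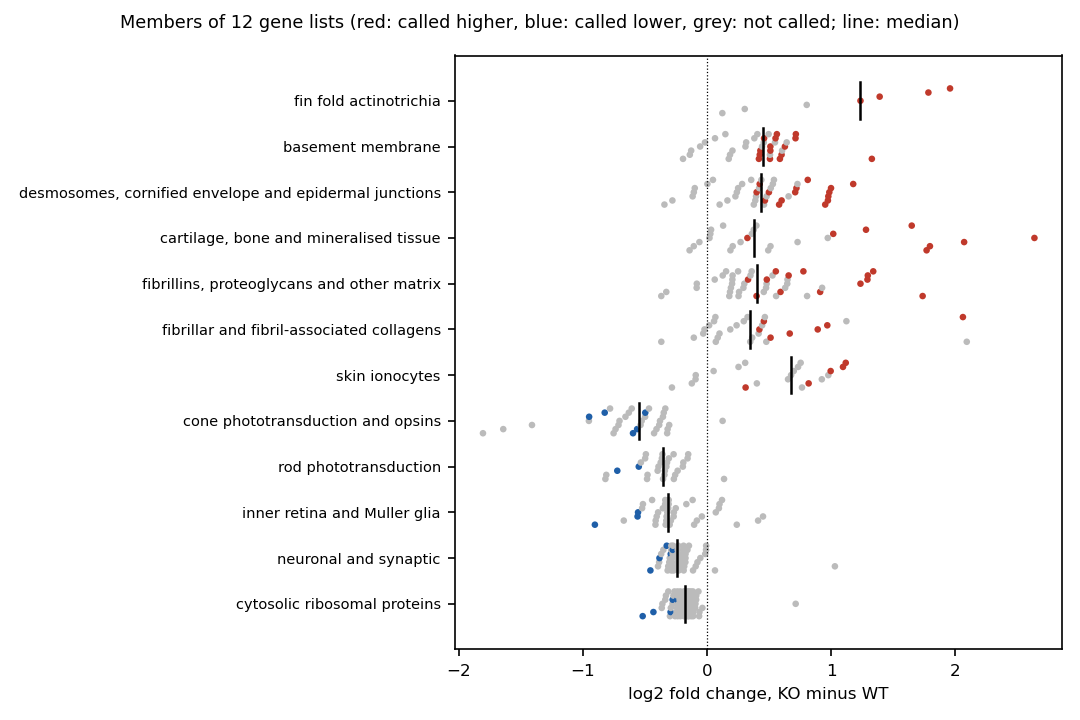
Log2 fold change of KO over WT (horizontal axis) of every tested member of 12 gene lists (1 list per line), with members called higher in red, members called lower in blue, members not called in grey and the list median as a black line. The 7 upper lists plotted have medians of 0.35 to 1.23 and called members only to the right of 0, and the 5 lower lists plotted have medians of -0.55 to -0.18 and called members only to the left. Of related lists not plotted, matrix proteases have a median of 0.31, keratins 0.14 and the visual cycle -0.19 with 1 member called in each direction.

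Retinal genes were called mostly lower, with rlbp1a and stra6 of the visual cycle called in opposite directions. Phototransduction turns light into a change of membrane voltage through opsins, transducin, a phosphodiesterase and cyclic nucleotide channels. Of 32 cone genes tested, 5 were lower and 0 higher, 31 had a negative fold change, and the median was -0.55. The cone transducin subunit gene gngt2b stood at 325, 406 and 439 CPM in KO replicates 2, 3 and 7, against 469, 741, 814, 807 and 622 CPM in WT replicates 3, 5, 10, 13 and 14 (a log2 change of -0.82, SE 0.17; edgeR, adjusted p = 0.0176). The groups did not overlap, though WT replicate 3 lay near the highest KO library. The red opsin genes opn1lw1 (-0.95) and opn1lw2 (-0.60), the transducin gene gnb3b (-0.56) and the guanylate cyclase gene gucy2f (-0.50) fell as well. The ultraviolet opsin gene opn1sw1 was not called, at 2460 ± 409 CPM in KO and 3477 ± 484 CPM in WT (adjusted p = 0.0564).

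Rod genes were lower in 2 of 29 cases and higher in 0 (median -0.35). These were gngt1, the rod transducin gamma gene, at 57.91, 59.16 and 54.30 CPM in KO, against 70.14, 74.71, 112.5, 100 and 114.2 CPM in WT (log2 fold change -0.72, SE 0.16, adjusted p = 0.0259), and the photoreceptor kinase gene grk1a, at 33.9 ± 4.83 CPM in KO and 49.6 ± 6.89 CPM in WT (-0.55; SD, n = 3 and 5). Both were separate in KO and WT, with WT replicates 3 and 5 the lowest of the WT libraries.

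Genes of photoreceptor fate and structure were lower in 5 of 36 cases and higher in 0 (median -0.28). Beside fscn2a (log2 fold change -0.89) they were the homeobox gene otx5 (-0.49), the calcium channel gene cacna1fb (-0.39), samd7 (-1.07) and rs1a (-0.62). The last encodes retinoschisin, an adhesion protein that holds retinal layers together, and stood at 64.0, 72.5 and 80.3 CPM in KO, against 82.3 CPM in WT replicate 3 and 112 to 124 CPM in the other WT libraries. In the visual cycle, which regenerates the chromophore, rlbp1a was lower (-0.56) and the retinol transporter gene stra6 higher (0.40), and the median of 27 genes was -0.19.

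On the inner retina list, which also holds genes of retinal glia, 3 of 38 genes were called lower and 0 higher (median -0.31). The share called was 7.89%, against 5.97% of all genes called in either direction and 1.86% called lower. The calcium sensor gene cabp2a stood at 9.02, 9.48 and 7.93 CPM in KO, against 13.1, 15.4, 17.15, 19.96 and 16.81 CPM in WT (log2 fold change -0.90, SE 0.16, adjusted p = 0.013), and the glutamate receptor gene gria4a at 29.3 ± 3.57 CPM in KO and 43.3 ± 2.41 CPM in WT (-0.56; SD, n = 3 and 5). The third was rbpms2b (-0.56), a marker of retinal ganglion cells. In all 5 retinal lists the mean level of every KO library lay below that of every WT library. Of all 43 lists, 7 lay wholly below WT in this way, the neuronal and ribosomal lists among them. For the visual cycle the gap was slight, with -0.0424 in KO replicate 7 and -0.038 in WT replicate 5. Another 7 lists lay wholly above WT: matrix remodelling, other matrix, fin fold, slow muscle, heat shock, apoptosis and pigment cells. In the basement membrane, epidermal junction, ionocyte, skeletal and fibrillar collagen lists, the mean level of KO replicate 2 lay inside the WT range. Called members without WT replicate 10 numbered 1 cone, 0 rod, 1 fate and 2 lower and 1 higher inner retina genes, without WT replicate 3 they numbered 10, 6, 9 and 9, and the fit of KO and WT alone called 2, both of the inner retina.

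Lens crystallins, of the same organ, were not called in any of 37 cases by edgeR, and 3 were called lower by DESeq2. An unadjusted p under 0.05 was found for 9 of the 37, and for 5488 of all 22158 genes tested. Their mean level was -0.725 in KO replicate 2, against -0.062 and 0.0484 in the other KO libraries, and the list median was -0.26.

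Neuronal and synaptic genes were lower in 5 of 51 cases and higher in 0, and 49 of 51 had a negative fold change (median -0.24). The share called was 9.8%, against 5.97% of all genes called in either direction and 1.86% called lower. The presynaptic adhesion gene nrxn1a stood at 158, 146 and 125 CPM in KO replicates 2, 3 and 7, against 179, 189, 206, 206 and 202 CPM in WT (log2 fold change -0.46, SE 0.084; edgeR, adjusted p = 0.0145). All 3 KO libraries lay below WT. The others were the synaptic vesicle gene syt1a (-0.29), its fusion partner stxbp1b (-0.28) and the axon growth genes gap43 (-0.33) and stmn4 (-0.38). In glia, fabp7b, whose product carries fatty acids in radial glia, was the 1 called gene of 22, at 1.69, 0.82 and 1.15 CPM in KO, against 2.67 to 8.95 CPM in WT (-1.94). In the fit without WT replicate 10, 1 neuronal and 0 glial genes were called.

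Muscle genes were called in both directions. In slow muscle 2 of 14 genes rose, the myosin heavy chains smyhc1, at 750, 693 and 849 CPM in KO, against 570, 391, 469, 505 and 464 CPM in WT (log2 fold change 0.67, SE 0.13; edgeR, adjusted p = 0.0154), and smyhc2 (0.44). Both were separate in KO and WT and both remained called in the fit of KO and WT alone. In fast muscle 3 of 43 rose and 3 fell (median -0.10). The falls were among the most abundant transcripts of the larva, the calcium buffers pvalb1, at 9345 ± 445 CPM in KO and 12241 ± 591 CPM in WT (-0.39), and pvalb2 (-0.38), and the myosin light chain gene mylz3 (-0.41; SD, n = 3 and 5). The rises were troponin I genes, tnni2a.1 (0.94), tnni2a.2 (0.42) and tnni2b.1 (0.65).

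Cardiac muscle genes rose in 4 of 27 cases and fell in 0 (median 0.32). The light chain gene myl4 stood at 23.5, 29.3 and 37.8 CPM in KO, against 11.8, 8.98, 8.21, 8.25 and 18.1 CPM in WT (log2 fold change 1.45, SE 0.23; edgeR, adjusted p = 0.0108). The groups did not overlap, with WT replicate 14 the highest of WT. The myl4 gene also lies on the chromosome of aldh3b1, and the part that position plays was not tested. The others were the troponin C gene tnnc1a (1.27), the atrial myosin gene myh6 (1.00) and the myosin binding protein gene mybpc3 (0.32). Leaving out WT replicate 10 or WT replicate 13 left 1 cardiac and 1 slow muscle gene called in each case, and 0 higher and 2 lower fast muscle genes.

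Liver and gut genes were higher where called. Of 56 hepatocyte genes 6 rose and 0 fell (median 0.38), among them 2 apolipoprotein B genes, apoba at 102, 116 and 202 CPM in KO, against 77.1, 56.1, 42.2, 32.9 and 61.0 CPM in WT (log2 fold change 1.38, SE 0.26; edgeR, adjusted p = 0.0151), and apobb.1 (0.67). Angiotensinogen, agt, averaged 49.9 ± 17.5 CPM in KO and 25.7 ± 5.63 CPM in WT (0.95; SD, n = 3 and 5), with replicate 7 the highest. The classical hepatocyte marker fabp10a was not called, at 416 ± 119 CPM in KO and 419 ± 85.2 CPM in WT (adjusted p = 0.982). The count depended on single libraries: 14 members rose without WT replicate 3, 13 without WT replicate 14 and 19 without it and 2HD replicate 1, but 2 without WT replicate 10 and 2 without WT replicate 13. DESeq2 called 14.

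In the intestine 3 of 25 genes rose, all mucins, and 0 fell (median 0.37). The membrane mucin gene muc13a stood at 7.02, 15.7 and 18.6 CPM in KO replicates 2, 3 and 7, against 6.24, 3.32, 1.68, 2.06 and 1.85 CPM in WT (log2 fold change 2.18, SE 0.40; edgeR, adjusted p = 0.0137). KO replicate 2 lay just above WT replicate 3 and the other KO libraries far above it. The secreted mucin gene muc5.1 (1.17) had replicate 2 inside the WT range, and muc13b (0.50) did not. Exocrine pancreas genes had 0 calls of 23 by edgeR and 1 rise by DESeq2. In edgeR 1 of them had an unadjusted p under 0.05, against 5488 of all 22158 genes tested. Their mean level spread from -0.698 in KO replicate 2 to 0.962 in KO replicate 7, against -0.655 to 0.407 in WT. Without WT replicate 10, as without WT replicate 13, 1 intestinal gene was called.

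Genes of glucose metabolism, which the study also examined, were called at unlike shares. The share was 2.38% for glycolysis and 9.68% for gluconeogenesis, glycogen and glucose transport, against 5.97% of all genes. Of 42 genes of glycolysis and pyruvate metabolism 0 rose and 1 fell, the muscle aldolase gene aldoaa, at 759, 598 and 596 CPM in KO, against 835, 874, 862, 916 and 704 CPM in WT (log2 fold change -0.37, SE 0.10; edgeR, adjusted p = 0.0499). KO replicate 2 lay inside the WT range. The aldoaa gene lies on the chromosome of aldh3b1, as the 90th tested gene from it, and the part that position plays was not tested. The list median was -0.10, with 34 of 42 fold changes negative. Among gluconeogenesis, glycogen and glucose transport genes 3 of 31 rose and 0 fell (median 0.24): the mitochondrial PEP carboxykinase gene pck2, at 189, 166 and 196 CPM in KO, against 101 to 154 CPM in WT (0.47, SE 0.11, adjusted p = 0.0319), and the glucose transporter genes slc2a1b (0.47) and slc2a8 (0.51). The cytosolic enzyme gene pck1 was not called, at 368 ± 130 CPM in KO and 397 ± 50.7 CPM in WT (adjusted p = 0.758).

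In the endocrine pancreas and insulin list 2 of 29 genes rose, the IGF binding protein genes igfbp2b (log2 fold change 0.96) and igfbp5a (0.72), and 1 fell, the transcription factor gene neurod1 (-0.72), which neurons and photoreceptors also express. It stood at 131, 121 and 105 CPM in KO, against 136, 149, 192, 261 and 243 CPM in WT, just without overlap. Insulin, ins, was not called, at 13.8 ± 3.98 CPM in KO and 11.4 ± 2.52 CPM in WT (adjusted p = 0.419). All calls of these 3 lists were lost without WT replicate 10 and without WT replicate 13.

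Among the aldehyde dehydrogenases, 1 gene was called. Of 20 tested, aldh3b1 included, 1 rose, the mitochondrial proline pathway gene aldh4a1, at 62.4, 69.6 and 81.7 CPM in KO, against 66.0, 55.7, 44.9, 49.7 and 47.8 CPM in WT (log2 fold change 0.43, SE 0.12; edgeR, adjusted p = 0.0493). KO replicate 2 lay below WT replicate 3, and the call was lost without KO replicate 3 or 7, without WT replicate 5, 10, 13 or 14, without WT replicate 14 and 2HD replicate 1 together, with KO and WT alone in the fit, with DESeq2's size factors and without a filter (adjusted p = 0.0534 to 0.25). The fatty aldehyde dehydrogenase genes of the same family were not called, with aldh3a2a at 17.2 ± 1.11 CPM in KO and 15.5 ± 1.26 CPM in WT (adjusted p = 0.411) and aldh3a2b at 12.8 ± 1.84 CPM in KO and 9.08 ± 2.08 CPM in WT (adjusted p = 0.108). The list median was 0.12.

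Sphingolipid genes rose in 3 of 44 cases and fell in 0 (median 0.13). Both sptlc1 (log2 fold change 0.42) and sptlc3 (0.62) encode subunits of serine palmitoyltransferase, which starts sphingolipid synthesis, and galca (0.69) encodes a lysosomal enzyme that removes galactose from galactosylceramide. The subunit gene sptlc1 stood at 20.6, 23.3 and 25.0 CPM in KO, against 17.8, 18.8, 15.1, 17.9 and 16.2 CPM in WT, without overlap. The lyase gene sgpl1, whose product releases the long-chain aldehyde hexadecenal from sphingosine phosphate, was not called, at 179 ± 24.0 CPM in KO and 141 ± 34.7 CPM in WT (adjusted p = 0.211). Of cholesterol and fatty acid synthesis genes, slc25a1b (0.72) and elovl7a (0.53) rose among 43. Called sphingolipid genes numbered 1 without WT replicate 10 and 7 in DESeq2, and the 2 calls of cholesterol and fatty acid synthesis genes were lost without WT replicate 10 and without WT replicate 13.

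The list of vessel genes, which also holds genes of hypoxia-inducible factors, showed 1 rise and 1 fall among 53, and both were of these factors. The gene epas1a, which encodes Hif2 alpha, stood at 101, 102 and 116 CPM in KO, against 80.1, 72.0, 63.4, 38.2 and 67.6 CPM in WT (log2 fold change 0.72, SE 0.18; edgeR, adjusted p = 0.0353). Its relative hif1aa went down, at 10.09, 11.02 and 9.08 CPM in KO, against 12.3, 14.8, 13.2, 17.0 and 14.4 CPM in WT (-0.51, SE 0.11, adjusted p = 0.0206). Neither gene overlapped between KO and WT. Both calls were lost with KO and WT alone in the fit, without KO replicate 3 and without KO replicate 7 (edgeR, adjusted p = 0.0625 to 0.172). The call of epas1a was also lost without WT replicate 10 and without WT replicate 14.

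The endothelial genes cdh5 and kdrl were not called by edgeR, nor was vegfaa, which encodes a VEGF ligand. The means of cdh5 were 33.7 ± 3.00 CPM in KO and 34.4 ± 3.29 CPM in WT (adjusted p = 0.916). Those of kdrl were 22.98 ± 4.003 CPM in KO and 19.96 ± 1.84 CPM in WT (adjusted p = 0.375). Those of vegfaa were 10.8 ± 0.992 CPM in KO and 11.6 ± 2.92 CPM in WT (adjusted p = 0.740). The list median was 0.070, and DESeq2 called 4 higher and 1 lower.

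Stress genes were called in few cases. The share was 1.85% for heat shock, 10.7% for apoptosis and 7.94% for Nrf2 targets, against 5.97% of all genes. In the heat shock and unfolded protein list 1 of 54 rose, the inducible chaperone gene hsp70l, at 22.6, 9.69 and 13.8 CPM in KO replicates 2, 3 and 7, against 5.54, 3.43, 4.92, 7.80 and 2.25 CPM in WT (log2 fold change 1.68, SE 0.30; edgeR, adjusted p = 0.0137). This is a gene for which KO replicate 2 was the highest library. In the apoptosis list 3 of 28 rose, casp6b.1, casp6a and the second entry named baxa, of the pore-forming protein Bax (0.31). All 3 lie on the chromosome of aldh3b1, as the 19th, 18th and 75th tested genes from it, in this order. The part that position plays in these calls was not tested. Of 63 Nrf2 targets and glutathione genes 5 rose and 0 fell (median 0.14), namely nfe2l2a, which encodes Nrf2 (0.48), sod3a (0.70), mgst1.1 (0.56) and the transporter genes abcb6a (0.87) and abcc2 (0.59), and without WT replicate 10 there was 1 and without WT replicate 13 there were 0.

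In translation and respiration few genes were called, at 6.17% and 6.33% against 5.97% of all genes. All of these calls were lower, where 1.86% of all genes were called lower. Of 81 cytosolic ribosomal protein genes 80 had a negative fold change and 5 were called lower (median -0.18). The stalk gene rplp2 stood at 331, 336 and 332 CPM in KO, against 384, 436, 536, 522 and 509 CPM in WT (log2 fold change -0.52, SE 0.12; edgeR, adjusted p = 0.0264), with rps25 (-0.43), rps29 (-0.29) and rps20 (-0.24) among the others. The KO values of rplp2 lay within a few CPM of each other and below all WT libraries. Of 79 nuclear genes of the respiratory chain 5 were lower and 0 higher (median -0.14), 3 of them cytochrome oxidase or ATP synthase subunits: cox7c (-0.32), cox6a2 (-0.58) and atp5f1e (-0.39). Without WT replicate 10, 0 ribosomal and 1 respiratory genes were called, without WT replicate 13, 0 and 2, and DESeq2 called 19 and 17 lower.

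Mitochondrially encoded genes had 0 calls of 13 by edgeR and by DESeq2. An unadjusted p under 0.05 in edgeR was found for 3 of them, against 5488 of all 22158 genes tested.

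Pigment cell genes rose in 6 of 38 cases and fell in 0 (median 0.25), and 3 of the 6 belong to purine synthesis, which pigment cells use for guanine crystals and pteridines. Beside paics, atic stood at 53.9, 48.9 and 63.6 CPM in KO, against 39.7, 42.7, 32.3, 30.6 and 35.5 CPM in WT (log2 fold change 0.62, SE 0.12; edgeR, adjusted p = 0.0155), without overlap, and pfas was higher by 0.46. The melanocyte receptor gene kita stood at 8.10, 12.2 and 13.4 CPM in KO, against 4.63 to 7.31 CPM in WT (0.97). The melanin enzyme gene tyr (0.53) and slc2a15a (0.93), of yellow pigment cells, also rose. With WT replicate 10 left out, 3 pigment cell genes were called.

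Blood and immune genes were mostly not called. Among 40 macrophage and neutrophil genes 3 rose, mpeg1.2, a perforin-like macrophage marker, at 8.46, 11.3 and 12.2 CPM in KO, against 3.07 to 7.42 CPM in WT (log2 fold change 1.09, SE 0.23; edgeR, adjusted p = 0.0196), lgals9l1 (0.65) and apoc1 (0.47), which is also on the hepatocyte list. Among 27 erythroid genes the second entry named hbae1.3 was the 1 call. Of the larval globins hbbe1.1 was not called, at 145 ± 47.1 CPM in KO and 181 ± 52.2 CPM in WT (adjusted p = 0.505). Without WT replicate 10, and likewise without WT replicate 13, 1 macrophage gene was called.

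Lists for proliferation and for the state of the larvae at sampling held no call by edgeR. Over all 22158 genes tested, 5488 had an unadjusted p under 0.05 in edgeR. Of 49 cell cycle genes 3 had an unadjusted p under 0.05, and DESeq2 called 0. Of 40 circadian clock genes 8 did, with 1 lower in DESeq2, and their mean level in WT ranged from -0.327 in replicate 5 to 0.359 in replicate 14. Of 46 immediate early and glucocorticoid genes 9 did, with 2 lower in DESeq2, and their mean level was -0.695 in KO replicate 2, against 0.150 and 0.0905 in the other KO libraries and -0.224 to 0.239 in WT. This response thus set KO replicate 2 apart from the other libraries of its group, as the lens list did.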

How the data were processed

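RNA sequencing counts of 13 libraries of zebrafish larvae were used. The authors deposited raw gene counts in whole numbers, without normalization. Per the labels' protocols, RNA was extracted with TRIzol and sequenced on a BGISEQ-500. Per the submitters' processing notes, Trim Galore 0.6.7, HISAT2 2.2.1, featureCounts 2.0.1 and build GRCz11 were used. Annotation, strand and multiple mapping are not given in the sources used here, which leaves paralogues, antisense and overlapping genes uncertain. The 32417 entries of the table hold 31681 different symbols. Where a symbol repeats, its later entry is named the second. The title of WT replicate 3 carries the number 1. Its description and its column carry 3, the number used here.

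The analysis used edgeR 4.0.16 under R 4.3.3. After filterByExpr (minimum count 10), counts were scaled with TMM factors and fitted by a quasi-likelihood model with 3 group means over all 13 libraries (biological coefficient of variation 0.151). Calls are genes under 0.05 after Benjamini-Hochberg adjustment across the 22158 tested, and rises and falls are named only for called genes. The contrast of the report is KO minus WT, and KO minus 2HD was used for side-by-side values. SE is the fold change divided by the square root of F. Alternatives were DESeq2 1.42.0, its size factors in edgeR, no filter, a minimum count of 50, only KO and WT in the fit, each KO or WT library left out, and WT replicate 14 and 2HD replicate 1 left out together. The steps were tested on simulated data.

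The members, the lists and the naming rule were chosen with earlier results of these data known. The rule took aldh3b1, genes called without each KO library in turn, the 12 rises and 12 falls with the smallest adjusted p described in the report, up to 3 called members per direction of each list, and up to 10 genes apart from all 10 other libraries; the table's highest-count entry stood for a repeated symbol in a list. List members named beyond these, called or not, were chosen after their values were seen. They are given with their values, except pleca and evpla, which are named only as called. List levels are means of log2 CPM (prior count 2). List counts are descriptions, with no test of a list. Results for some genes are not reported here.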

Additional observations from a re-analysis of the deposited data

Results flagged for a closer look

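Dixon's criterion for a single sample far from the other 4 was applied to the 5 WT libraries for each of the 120 named genes, and picked out 2, where chance picks about 1 in 20. The groups of 3 KO libraries are too small for it. The retinoschisin gene rs1a stood at 82.3 CPM in WT replicate 3, the lowest, against 112 to 124 CPM in the other WT libraries. The transporter gene abcb6a stood at 8.95 CPM in WT replicate 14, the highest, against 4.52 to 5.54 CPM in the other WT libraries. Both genes are called in KO against WT, rs1a lower and abcb6a higher, and in both the WT library apart lies toward the KO values. Why these libraries differ was not tested.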

How the results depend on the processing

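Of the 120 genes that the naming rule took, 0 changed direction under the alternatives run. All but aldh3b1 were chosen for their calls in these same libraries, so this is no independent check. Other genes named in the text were not followed through the alternatives. The number of genes called in KO against WT was 1322 in the full fit, 102 with only KO and WT in the fit (71 higher, 31 lower) and 2364 in DESeq2 (1346 higher, 1018 lower). With 1 KO or WT library left out it ranged from 3 to 2071, with 2 to 1324 higher and 1 to 747 lower. It was 1301 with DESeq2's size factors in edgeR, 1088 without a filter, 1378 at a minimum count of 50, and 1373 without WT replicate 14 and 2HD replicate 1, of which 1015 were among the 1322. At an unadjusted p under 0.05 there were 5488 genes in the full fit, 4068 without KO replicate 3 and 3640 without KO replicate 7. KO against 2HD gave 1547 calls, 2380 in DESeq2, 3494 without WT replicate 14 and 2HD replicate 1, and 81 to 1565 with 1 KO or WT library left out. The log2 fold change of aldh3b1 in KO against WT was -0.32 to -0.14 with 1 library left out and was not called under any alternative.

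Of the 120 named genes, 116 lost their call without KO replicate 3, and as many without KO replicate 7. In the fit of KO and WT alone 85 lost it, without WT replicates 10, 13 and 14 59, 55 and 23, and under the other alternatives 0 to 13. Medians of 5 lists changed sign under some alternative: endocrine pancreas and insulin (3 of 14 alternatives), and exocrine pancreas, mitochondrially encoded, cell cycle and immediate early genes (1 each). The cause of these differences was not tested. No paired analysis was possible because KO and WT share 1 replicate number, 3, and pairing needs more than that. With 3 KO libraries a gene not called is not shown to be equal.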
